A study of Sus scrofa with 36 samples.

Results

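The genes described here are the angiotensin receptors AGTR1 and AGTR2, the angiotensin-converting enzyme ACE, the potassium channels KCNJ5, KCNK3 and KCNK9, the calcium channels CACNA1H and CACNA1D, and the calcium pump ATP2B3. They were chosen by name, as 9 genes that carry the angiotensin signal and the membrane currents of the aldosterone-producing cell. Of these, 6 had a probe on the array (12 probes) and 4 had tested probes (10 of 45348 probes tested). Adrenal glands came from 36 castrated male growing pigs of 3 breeds, Large White (LW), Creole (CR) and their cross (F1, Large White x Creole), with 6 pigs in each of 6 groups. Thermoneutral (TN) pigs were held at 24 °C. Heat-stressed (HS) pigs were labelled 30 °C, whereas the study's design gives 32 °C for up to 5 days. The labels give no age. Because slaughter of the TN group preceded warming of the room and that of the HS group followed it, slaughter day and temperature cannot be told apart. The pigs included littermates, and which arrays came from littermates is not given with the labels.

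In the outer layer of the adrenal cortex, the zona glomerulosa, angiotensin II made by ACE binds the receptor encoded by AGTR1. This closes potassium channels, among them KCNK3 (TASK-1), KCNK9 (TASK-3) and KCNJ5 (GIRK4), so that the membrane depolarises and calcium enters through CACNA1H (T-type) and CACNA1D (L-type). Calcium drives the synthesis of aldosterone, the hormone that retains sodium, and pumps such as ATP2B3 return calcium to the outside of the cell. Mutations of KCNJ5, CACNA1D, CACNA1H and ATP2B3 are known in human aldosterone-producing adenomas.

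The probes that the values rest on are 60 bases long. Probes of AGTR1, ACE and CACNA1D are shown because several probes of a gene were compared. ACE probes 2 to 4 share 42 bases, and ACE probe 3 has the same sequence as ACE probe 2. Only the first 30 bases are given for ACE probe 1 and CACNA1D probe 1. Where each probe lies in its transcript was not checked.
AGTR1 probe 3: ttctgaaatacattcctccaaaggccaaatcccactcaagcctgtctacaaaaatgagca
ACE probe 1, first 30 bases: gctgcggcccctgccccttggtccccgggg
CACNA1D probe 1, first 30 bases: atccaggcaaaaacacttccaggtttgtaa
CACNA1D probe 2: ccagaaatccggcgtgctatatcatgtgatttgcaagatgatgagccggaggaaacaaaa

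Expression is given as the log2 of the quantile-normalised intensity, so that a difference of 1 is a doubling, and levels of different probes are not compared. Each array had between 42437 and 48061 of 60306 spots above background, and each correlated with the others at a mean r of 0.986 to 0.991. Slide 1 carried 4 arrays and slides 2 to 5 carried 8 each, with TN and HS balanced on every slide. The defining adrenal genes were measured in all groups, with mean log2 intensities of 17.96 for CYP17A1, 18.34 for CYP11A1 and 17.72 for STAR of the cortex and 18.70 for CHGA of the medulla. CYP11B2, the aldosterone synthase, had no tested probe by name. In RNA of mixed adrenal tissue, fewer cells of a type and less RNA per cell cannot be told apart. The share of cortex and medulla in each sample is not given.

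For temperature, 0 of the 10 member probes passed an adjusted p of 0.05 in limma, and 2 had an unadjusted p under 0.05. Over all probes, 0.911% were called and 13.5% had an unadjusted p under 0.05. The 2 probes were those of CACNA1D. The median HS minus TN difference of the 10 probes was -0.047.

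AGTR1 (chromosome 13, 88934873 to 88980317 in Sscrofa11.1, the RefSeq annotation used for all positions here) encodes the receptor for angiotensin II that drives aldosterone secretion. Its probe 1 gave a lowest, median and highest pig of 12.95, 13.23 and 13.39 in the CR TN pigs and of 12.82, 13.21 and 13.82 in the CR HS pigs. The F1 pigs gave 12.95, 13.004 and 13.37 at TN and 13.06, 13.10 and 13.15 at HS. The LW pigs gave 12.85, 13.15 and 13.46 at TN and 12.73, 12.998 and 13.19 at HS. TN and HS overlapped in every breed, and with probe 1 the 6 F1 HS pigs lay closest together (SD 0.04, against 0.16 to 0.35 in the other groups). With probe 2 their SD was 0.13, as in CR TN (0.13), and with probe 3 it was 0.09, against 0.18 to 0.34 in the other groups. The difference HS minus TN over the 3 breeds was -0.027 (95% interval -0.17 to 0.12, limma adjusted p = 0.918) for probe 1, -0.067 (adjusted p = 0.784) for probe 2 and -0.089 (adjusted p = 0.656) for probe 3. Probe 2 ranged from 11.48 to 12.31 in the TN pigs and from 11.31 to 12.44 in the HS pigs, and probe 3 from 10.03 to 10.65 and from 9.90 to 10.75. The 3 probes deviated together within groups, with r of 0.87, 0.88 and 0.77 over 36 pigs. Within the LW pigs the 3 differences were -0.16, -0.21 and -0.22 (limma adjusted p of 0.834, 0.805 and 0.786). They lay between -0.043 and 0.033 in the CR pigs and between -0.0050 and 0.048 in the F1 pigs.

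AGTR2 (chromosome X, 95267709 to 95272237), the other angiotensin receptor, best known from fetal tissues, had 1 probe and it was not among the tested probes. It was above background on 1 of 36 arrays, a CR TN pig. Its unnormalised intensity ran from 24 to 57 with a median of 31.75, where the local background had a median of 38.5. No difference between groups was measurable for it.

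ACE (chromosome 12, 15394487 to 15414609) converts angiotensin I to angiotensin II and is best known from endothelium. Its probe 1 gave 15.10, 15.31 and 15.68 (lowest, median and highest pig) in CR TN and 15.07, 15.34 and 15.68 in CR HS. It gave 15.20, 15.35 and 15.62 in F1 TN and 15.09, 15.26 and 15.64 in F1 HS. It gave 15.13, 15.26 and 15.67 in LW TN and 15.19, 15.54 and 15.60 in LW HS. TN and HS overlapped in all 3 breeds, and the difference HS minus TN was 0.0082 (limma adjusted p = 0.977). The other ACE probes overlapped between groups as well. Probe 2 lay between 7.47 and 8.73 in the TN pigs and between 7.47 and 8.42 in the HS pigs. Probes 2, 3 and 4 differed by -0.12, -0.090 and 0.048 between HS and TN (limma adjusted p of 0.705, 0.789 and 0.904).

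ACE probe 1 differed between slides. It lay between 15.07 and 15.20 on slide 2, between 15.09 and 15.28 on slide 1, between 15.25 and 15.40 on slide 5, and between 15.36 and 15.68 on slides 3 and 4. All 8 arrays of slide 2 were thus below all 16 arrays of slides 3 and 4. The slide took 85.6% of its variance within groups, against a median of 20.2% over the 45261 probes with no missing value, 13.1% to 16.9% for the other ACE probes and 48.2% for KCNJ5, which lay between 7.73 and 7.99 on slide 1 and between 6.94 and 7.67 on slides 2 and 3. The limma values of ACE probe 1 with the slide as a block were 0.0082 for HS minus TN (adjusted p = 0.929) and an adjusted p of 0.701 for the F test over breeds.

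Probes 2 to 4 of ACE, which share 42 bases, deviated together within groups, at r of 0.91 between probes 2 and 4 and 0.95 between the identical probes 2 and 3. ACE probe 1 correlated with them at r of 0.08, 0.14 and 0.24, and at 0.40, 0.33 and 0.38 with the slide also in the fit. Its G and C content was 78.3%, higher than that of 99.9% of the tested probes, which have a median of 41.7%, and probes 2 to 4 have 45%. Which of these measures ACE transcript was not tested. The values of ACE probe 1 and of the other 3 are therefore given apart.

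**Figure D1:**
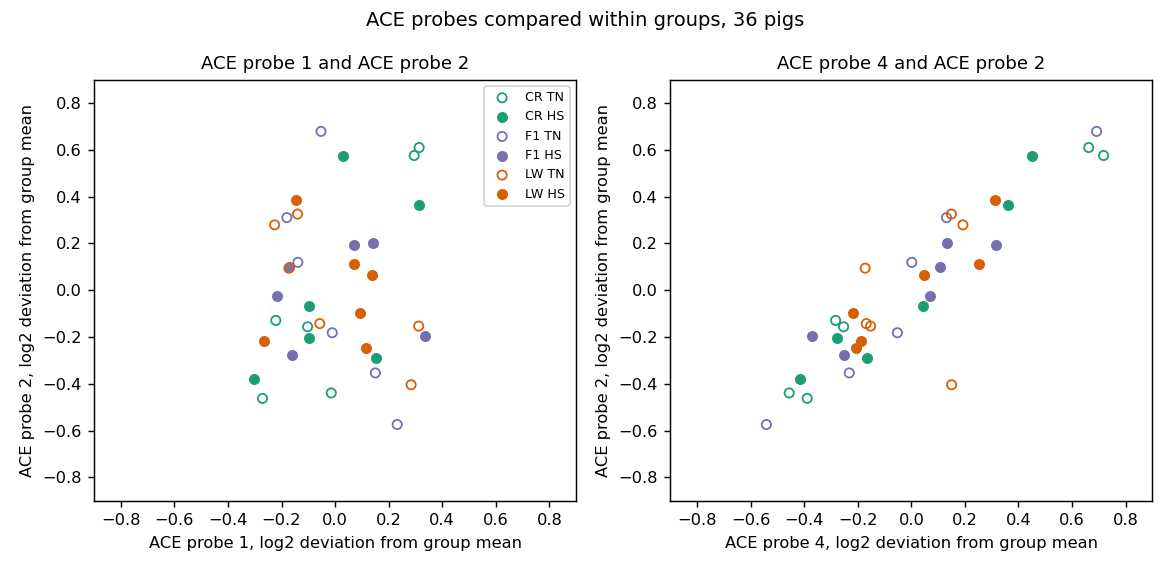
Agreement of the ACE probes: each point is 1 of 36 pigs, and both axes give the deviation of a probe's log2 intensity from its group mean, for probe 1 against probe 2 and for probe 4 against probe 2. Probes 4 and 2 follow each other (r 0.91), and probe 1 with probe 2 gives r of 0.08, where the deviations of probe 1 go largely with the slide (r 0.40 with the slide in the fit).

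KCNJ5 (chromosome 9, 55836777 to 55861288) encodes the inwardly rectifying potassium channel GIRK4. Its probe gave 6.94, 7.66 and 7.82 in CR TN and 7.28, 7.39 and 7.91 in CR HS. It gave 7.27, 7.59 and 8.13 in F1 TN and 7.24, 7.44 and 7.99 in F1 HS. It gave 7.501, 7.63 and 7.97 in LW TN and 7.15, 7.47 and 7.83 in LW HS. TN and HS overlapped in all 3 breeds, and 5 of 18 HS pigs lay above the TN mean of their breed. The difference HS minus TN was -0.13 (95% interval -0.30 to 0.04, limma adjusted p = 0.539), with -0.063 in CR, -0.13 in F1 and -0.19 in LW.

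KCNK3 (chromosome 3, 112322446 to 112359212) encodes the TASK-1 leak channel. Its probe was above background on 5 of 36 arrays, 1 in each group except F1 TN, and was not among the tested probes. Its unnormalised intensity ran from 26.5 to 59 with a median of 37, equal to the median local background of 37. KCNK9 (chromosome 4, 3562086 to 3643248), CACNA1H (chromosome 3, 40637420 to 40694616) and ATP2B3 (chromosome X, 124318874 to 124357653) were not matched to a probe by name or accession, and are not analysed here.

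CACNA1D (chromosome 13, 35568534 to 35911483) encodes the pore of the L-type calcium channel Cav1.3, and it had the largest HS minus TN differences among the tested members. Probe 1 gave 11.55, 11.92 and 12.10 in CR TN and 11.57, 11.81 and 12.14 in CR HS. It gave 11.48, 11.96 and 12.34 in F1 TN and 12.10, 12.45 and 12.65 in F1 HS. It gave 11.43, 11.71 and 11.80 in LW TN and 11.91, 12.06 and 12.28 in LW HS. TN and HS did not overlap in the LW pigs, where 0.37% of all probes did not overlap and 0.201% did so with HS higher. They overlapped in the F1 pigs, in which 3 TN pigs lay between 11.48 and 11.69 and the other 3 between 12.23 and 12.34. In the CR pigs the ranges nearly coincided.

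The second CACNA1D probe gave 8.30, 8.67 and 8.85 in CR TN and 8.30, 8.65 and 8.77 in CR HS. It gave 7.91, 8.68 and 9.21 in F1 TN and 8.90, 9.13 and 9.39 in F1 HS. It gave 8.08, 8.45 and 8.57 in LW TN and 8.31, 8.68 and 8.98 in LW HS. TN and HS overlapped in all 3 breeds with this probe. The probes deviated together within groups (r of 0.73 over 36 pigs).

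**Figure D2:**
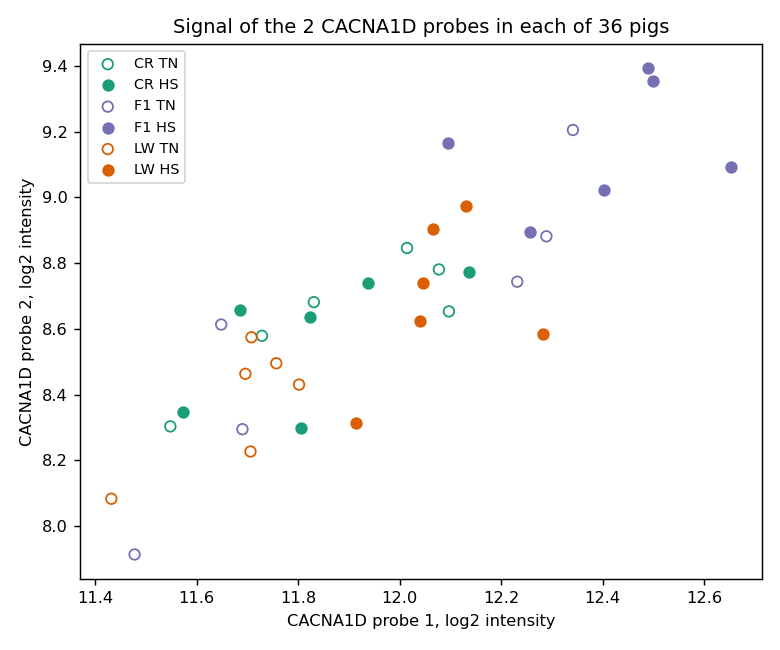
The CACNA1D probes against each other: each point is 1 of 36 pigs, with the log2 intensity of probe 1 and of probe 2 on the axes, open for TN and filled for HS, by breed. The F1 HS pigs lie at the upper end with both probes (12.10 to 12.65 and 8.90 to 9.39).

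Over the 3 breeds the difference HS minus TN was 0.26 with probe 1 (1.20-fold, 95% interval 0.10 to 0.43 on the log2 scale, limma adjusted p = 0.0998). It was 0.26 with probe 2 (1.20-fold, 0.07 to 0.45, limma adjusted p = 0.16). With each probe 14 of 18 HS pigs lay above the TN mean of their breed. Of these pigs, 6 of 6 in F1, 6 of 6 in LW and 2 of 6 in CR lay above it with probe 1, and 6, 5 and 3 with probe 2. Neither probe passed the threshold for temperature. Within slides the probe 1 difference lay between 0.047 and 0.41 and that of probe 2 between 0.057 and 0.43. These values ignore breed, which is uneven on the slides, and on slide 1 both TN arrays were LW and the HS arrays were CR and F1. With breed in the fit, which slides 2 to 5 allow, the difference lay between 0.12 and 0.40 with probe 1 and between 0.13 and 0.43 with probe 2.

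Within breeds, the F1 difference was 0.45 with probe 1 (95% interval 0.19 to 0.71, limma adjusted p = 0.133) and 0.55 with probe 2 (0.25 to 0.84, adjusted p = 0.121). Over the other settings it ran from 0.27 without slide 4 to 0.64 without slide 5 with probe 1 (limma adjusted p of 0.77 and 0.0325, the second a call) and from 0.32 to 0.70 without the same slides with probe 2 (adjusted p of 0.747 and 0.0629). The 3 low F1 TN pigs lay on slides 3 and 4 and the 3 high ones on slides 2 and 5, and the part of the slide in this split was not tested. The LW difference was 0.40 (0.14 to 0.66, limma adjusted p = 0.613) and 0.31 (0.01 to 0.61, adjusted p = 0.783). The CR difference was -0.056 and -0.066. The interaction of breed and temperature had p of 0.0142 and 0.0199 and a limma adjusted p of 0.982 for both, so that a difference in response between breeds was not established. Over all probes 0 were called for the interaction, with 4.22% at an unadjusted p under 0.05. Within breeds 0 of the 10 member probes were called, with 2 at an unadjusted p under 0.05 in LW, 2 in F1 and 0 in CR. Over all probes 0.011% were called in LW and 0 in CR and F1, and 6.29%, 4.79% and 12.3% of probes had an unadjusted p under 0.05 in LW, CR and F1. The calls over all probes within F1 moved with the setting, from 0 to 44 with median centring and 238 without slide 5.

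**Figure D3:**
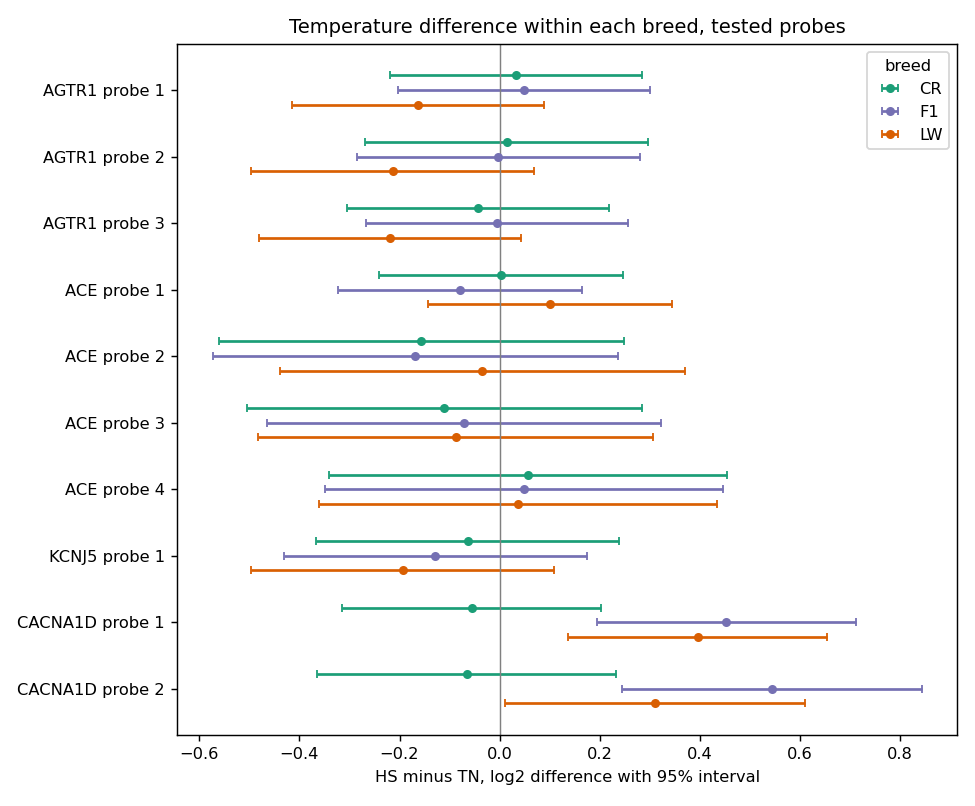
Difference HS minus TN of the 10 tested member probes within each breed, on the log2 scale, with 6 pigs per group and bars that give the 95% interval from limma. CACNA1D lies above 0 in F1 (0.45 and 0.55) and LW (0.40 and 0.31) and near 0 in CR.

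Breed was compared over both temperatures, with 12 pigs per breed. Of the 10 member probes, 1 was called by limma's F test over the 3 breeds, against 10.6% of all probes. This was CACNA1D probe 1 (limma adjusted p = 0.0439), whereas probe 2 had an adjusted p of 0.0774. The call was lost with no filter on dim probes (adjusted p = 0.0549), without 24 of the 36 pigs one at a time, with an adjusted p from 0.00983 to 0.0899, and without slide 1, 2, 3 or 5 (adjusted p of 0.075, 0.293, 0.128 and 0.182). Probe 2 passed with the slide block (adjusted p = 0.0368), with array weights (0.0482) and without slide 4 (0.00413), and its adjusted p reached 0.364 without slide 2. Against the mean of LW and CR, the F1 pigs differed by 0.30 with probe 1 (95% interval 0.13 to 0.48, limma adjusted p = 0.105) and by 0.31 with probe 2 (0.11 to 0.51, adjusted p = 0.162). For this contrast 0 of the 10 member probes were called and 2 had an unadjusted p under 0.05. Probe 1 passed with array weights (adjusted p = 0.0438) and both probes passed without slide 4 (0.034 and 0.0226), over adjusted p of 0.034 to 0.477 and 0.0226 to 0.566 in the other settings. Over all probes 0.415% were called (188 probes, and 14 without slide 3) and 11.2% had an unadjusted p under 0.05.

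Between LW and CR, 0 of the 10 member probes were called and 0 had an unadjusted p under 0.05. In all, 11.5% of all probes were called and 24.4% had an unadjusted p under 0.05. The differences LW minus CR were -0.13, -0.14 and -0.047 for AGTR1, 0.039, 0.058, 0.16 and 0.13 for ACE, 0.050 for KCNJ5, and 0.027 and -0.073 for CACNA1D. Markers of other cell types differed between these breeds in the same glands. Of 5 adipocyte genes, 4 were lower in LW (ADIPOQ -1.62, FABP4 -1.33, PLIN1 -0.90 and CIDEC -0.59), and the median of the 5 was -0.90. Of 7 genes of the adrenal medulla, 5 were higher in LW, among them CHGB (0.53) and PNMT (0.38), and the median of the 7 was 0.35. Of 5 zona glomerulosa genes, 1 was called, HSD3B1 (-0.78, limma adjusted p = 5.78e-06), with 3 differences above 0, 2 below and a median of 0.048. Of 5 genes of fibroblasts and capsule, all were below 0 (median -0.32) and 1 was called, PDGFRA (-0.32). RGS5 of the pericyte list (0.84), KDR of the endothelium list (0.68), STAR of the zona fasciculata list (-0.34) and CSF1R of the leukocyte list (-0.29) were the only calls of their lists. The medians of these 4 lists were 0.098, -0.060, 0.0027 and 0.025. Above 0 were 5 of 6, 2 of 6, 3 of 6 and 3 of 5 genes, so KDR and CSF1R went against most of their lists. The part of all these markers in the member values was not tested.

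The 6 groups were also set in order of their mean for AGTR1 probe 1, ACE probe 1, KCNJ5 and both CACNA1D probes. With CACNA1D probe 1 the order from high to low was F1 HS (12.40), LW HS (12.08), F1 TN (11.95), CR TN (11.88), CR HS (11.83) and LW TN (11.68). With probe 2 it was F1 HS (9.15), LW HS (8.69), CR TN (8.64), F1 TN (8.61), CR HS (8.57) and LW TN (8.38). KCNJ5 was highest on average in LW TN (7.67), and AGTR1 was highest in CR HS (13.22) and lowest in LW HS (12.99). Of 25 pairs of neighbours in that order, 0 passed in an exact permutation test (6 pigs against 6, smallest p possible 0.0022) after adjustment over the 25. Neighbours are the closest groups by construction, so this says nothing of groups farther apart, which were not tested. The lowest adjusted p was 0.135, for the F1 HS pigs against the LW HS pigs with CACNA1D probe 1 (0.32, exact p = 0.0108) and probe 2 (0.46, exact p = 0.00649).

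**Figure D4:**
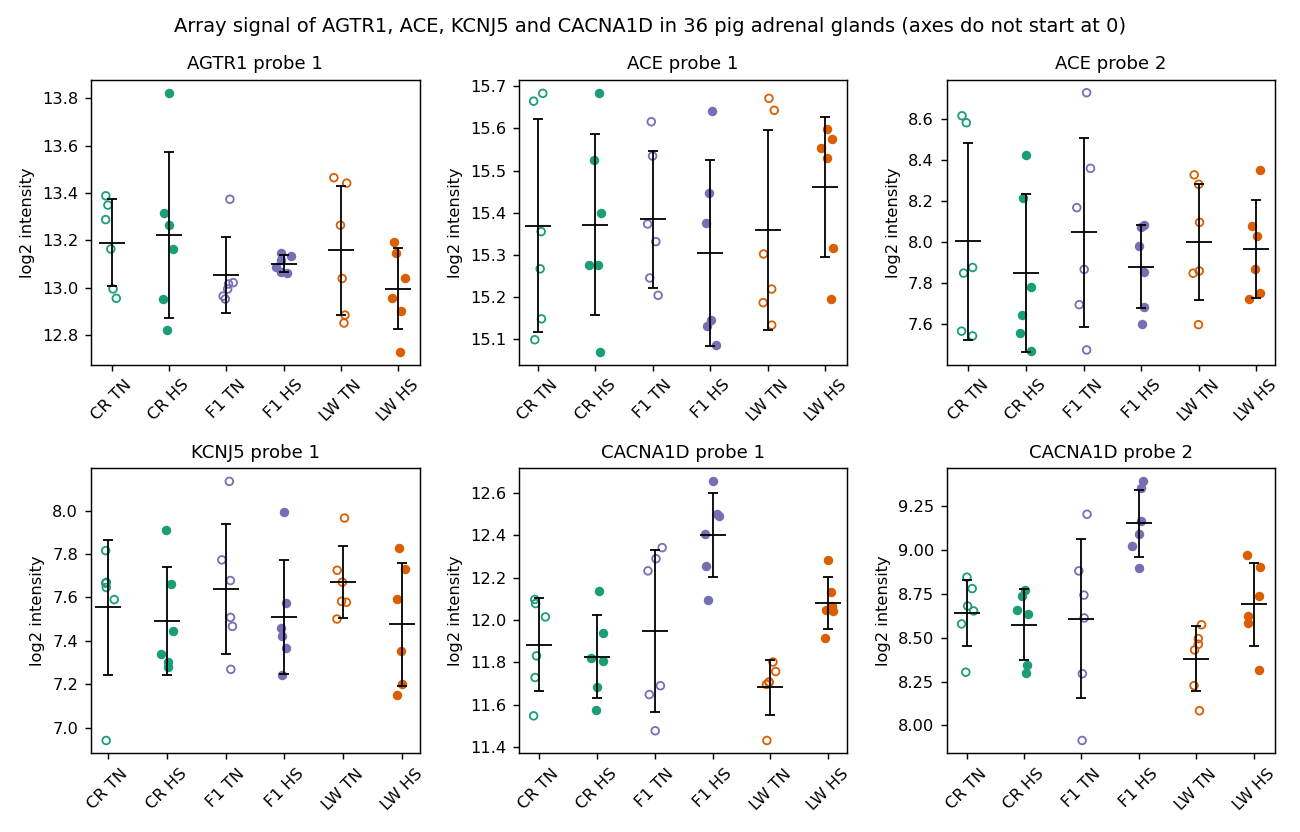
Log2 intensity of 6 member probes (AGTR1 probe 1, ACE probes 1 and 2, KCNJ5, CACNA1D probes 1 and 2) in the 6 groups, with 6 pigs each, open points for TN and filled for HS, and bars for the mean and SD, where the axes do not start at 0. In the CACNA1D panels the F1 HS pigs have the highest mean (12.40 and 9.15). In the panel of AGTR1 probe 1 they lie closest together (SD 0.04). With AGTR1 probes 2 and 3, not drawn, their SD was 0.13 and 0.09.

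Across the 36 pigs, deviations from the group mean were compared between AGTR1, ACE, KCNJ5 and CACNA1D in 6 pairs, with probe 1 for each gene. Of these, 0 passed after adjustment. The closest pair was AGTR1 with KCNJ5 (r = 0.35, rho = 0.30, permutation p = 0.036, adjusted p = 0.216, r of 0.21 without the 2 pigs farthest out and 0.22 with the slide in the fit). The 4 genes were also compared with the mean log2 level of the markers of 5 cell types, in 20 relations, and 1 passed. For ACE the relations depended on the probe, with r to the zona glomerulosa markers of -0.19 for probe 1 (-0.0015 with the slide in the fit), 0.20 for probe 2 and 0.25 for probe 4. To the endothelium markers r was 0.018 for ACE probe 1 (0.44 with the slide in the fit), 0.17 for probe 2 and 0.047 for probe 4. With the slide in the fit ACE probe 1 gave r of 0.23 with CACNA1D and -0.29 with KCNJ5 (-0.17 and 0.04 without). The values with the slide in the fit were not tested. KCNJ5 was lower in pigs with higher endothelial markers (r = -0.56, permutation p = 0.00166, adjusted p = 0.0332, rho = -0.57, adjusted p = 0.03, and r = -0.58 without the 2 pigs farthest out). The relation was -0.50 with slide means removed. Within slides r lay between -0.85 and -0.0059, and within groups between -0.78 and 0.28, positive in LW TN only. The pigs share the normalisation, and the markers taken singly gave r from -0.44 for CDH5 to -0.11 for PECAM1.

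By the likeness of their deviations from group means over 36 pigs, among 10336 named genes, AGTR1 was followed most closely by GAL3ST1 (r = 0.71), TMEM98 (0.70) and GLDN (0.65). KCNJ5 was followed by PLCL2 (0.71), SMAGP (0.69) and PTPN3 (0.69), and CACNA1D by CD55 (0.74), ALOX5AP (0.72) and ARHGAP31 (0.71). ACE probe 1 was followed by UTF1, CBR4 and ASB12 (0.94 each), a likeness that holds the slide differences of ACE probe 1. With the slide also in the fit these 3 gave r of 0.63, 0.59 and 0.53, and the genes named for AGTR1, KCNJ5 and CACNA1D gave 0.57 to 0.62, 0.51 to 0.68 and 0.67 to 0.73. These are a description of likeness across these arrays.

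Of the other genes of the pathway, 90 were listed, 68 had a probe and 61 were tested by their brightest probe. For temperature 0 of 61 passed in limma and 9 had an unadjusted p under 0.05, near the shares over all probes (0.911% called and 13.5% at that level), with a median difference of -0.0095 against -5.0e-06 over all probes. The smallest p of the 61 was that of CALM3, a calmodulin gene named here after its values were seen (-0.17, limma adjusted p = 0.0698, with 0.0308 to 0.227 over 16 other settings and called under the slide block and array weights). Of the 8 renin-angiotensin genes, those with the smallest p were LNPEP, an aminopeptidase that binds angiotensin IV (0.12, limma adjusted p = 0.124), and ATP6AP2, the prorenin receptor (-0.09, limma adjusted p = 0.191). Between LW and CR 8 of 61 were called, 6 higher and 2 lower in LW, where 5.98% of all probes were called higher and 5.5% lower. Among the potassium channels 2 of 11 were lower in LW and 0 higher. Among the calcium channel subunits 3 of 9 were higher, among the genes of the angiotensin II signal 2 of 23 were higher, among the pumps 1 of 10 was higher, and among the renin-angiotensin genes 0 of 8 were called. These counts take the brightest probe only. CTSA of the renin-angiotensin genes and ORAI1 of the angiotensin II signal each had 1 of 3 probes called, not the brightest. CACNB1 of the calcium channel subunits had 1 of 2 probes called, and KCNQ1 and CAMK4 had 2 of 2.

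The potassium channel KCNQ1, which repolarises the membrane, had a lowest, median and highest pig of 6.94, 7.69 and 8.40 in CR and of 6.82, 7.04 and 7.48 in LW (-0.64, SE 0.12, limma adjusted p = 0.000354). KCNJ11, the pore of the ATP-sensitive potassium channel, gave 8.38, 9.20 and 9.38 in CR and 8.29, 8.73 and 8.995 in LW (-0.40, SE 0.12, adjusted p = 0.0199). Both overlapped between the breeds, with the LW pigs at the lower end. The adipocyte markers (lower in LW) and the medulla markers (higher in LW) differed between the breeds as given above, and their part in the differences of the pathway genes was not tested.

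CAMK4, a calmodulin-dependent kinase, gave 7.67, 7.99 and 8.82 in CR and 7.88, 8.84 and 9.40 in LW (0.72, SE 0.14, limma adjusted p = 0.000651). CAMK1D, a kinase of the same family, gave 9.91, 10.36 and 10.65 in CR and 10.36, 10.71 and 10.89 in LW (0.35, SE 0.08, adjusted p = 0.0032). LW was higher in both, with overlap. The calcium channel subunit CACNA2D1 gave 11.14, 11.52 and 11.93 in CR, 11.66, 12.13 and 12.24 in F1 and 11.69, 11.89 and 12.09 in LW. It was 0.31 higher in LW than in CR (SE 0.08, limma adjusted p = 0.00846), and it was the only pathway gene called for F1 against the mean of its parents (0.30, SE 0.07, adjusted p = 0.0424). The subunits CACNB1 (0.29, adjusted p = 0.0113) and CACNB3 (0.16, adjusted p = 0.0484) and the sodium pump subunit ATP1B1 (0.32, adjusted p = 0.0395) were also higher in LW. Over 15 other settings, the call between LW and CR was lost in 7 for CACNB3, in 4 for ATP1B1, in 3 for KCNJ11, in 2 each for CACNB1 and CACNA2D1 and in 0 for CAMK1D, CAMK4 and KCNQ1, and the call of CACNA2D1 for F1 in 8. Without single pigs, the call was lost in 23 of 36 cases for CACNB3 (adjusted p 0.0229 to 0.0897), in 23 for CACNA2D1 in F1 (0.0214 to 0.0882) and in 11 for ATP1B1 (0.0235 to 0.0755).

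**Figure D5:**
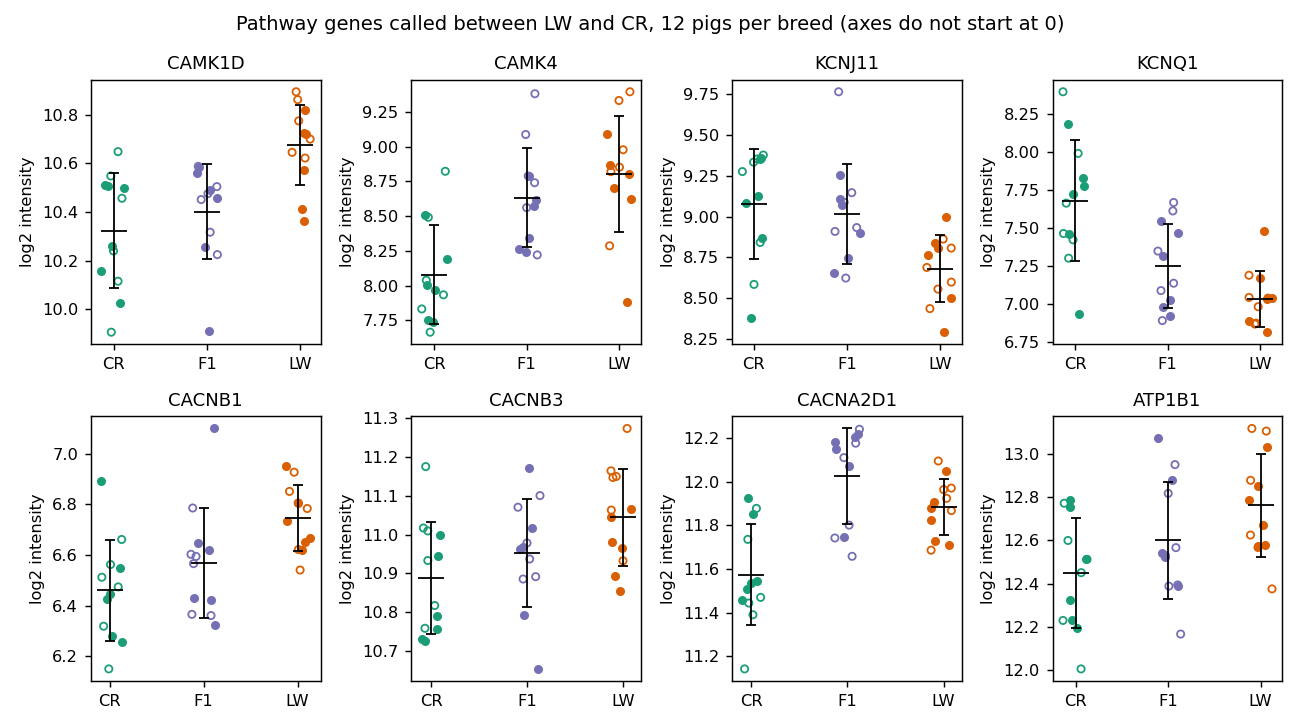
Log2 intensity of the 8 pathway genes called between LW and CR, with 12 pigs per breed and bars for the mean and SD. LW lies lower for KCNQ1 and KCNJ11 and higher for the other 6, and the breeds overlap in all 8.

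Beside the CACNA1D values, the mean log2 intensity of 5 zona glomerulosa markers averaged 11.15 in F1 TN (range 11.02 to 11.44) and 11.35 in F1 HS (11.16 to 11.50). All 5 genes had a positive HS minus TN difference in F1, with a median of 0.21 and 2 of 5 at an unadjusted p under 0.05, against 12.3% of all probes. The same mean was 11.14 in LW TN (11.06 to 11.24) and 11.14 in LW HS (10.96 to 11.35), and 11.25 in CR TN (11.13 to 11.30) and 11.27 in CR HS (11.12 to 11.43). No marker gene of any cell type list was called for temperature. The mean of 7 medulla markers averaged 14.20 in LW TN and 13.92 in LW HS, 13.96 in F1 TN and 13.75 in F1 HS, and 13.70 in CR TN and 13.60 in CR HS. All 7 genes had a negative HS minus TN difference over the breeds, with a median of -0.21 and 3 of 7 at an unadjusted p under 0.05, against 13.5% of all probes. All 7 were also negative within LW (median -0.31, 2 of 7 at that level, against 6.29%) and within F1 (-0.17, 2 of 7, against 12.3%), and 6 of 7 within CR (-0.096, 0 of 7). The mean of 5 markers of fibroblasts and capsule was 12.96 in LW TN (12.81 to 13.16) and 12.61 in LW HS (12.39 to 12.87), with a median difference of -0.48 and 4 of 5 genes at an unadjusted p under 0.05, against 6.29% of all probes. It was 12.75 in F1 TN (12.54 to 13.20) and 12.95 in F1 HS (12.58 to 13.20), with a median difference of 0.27 and 1 of 5 genes at that level, against 12.3%, and 13.16 in CR TN (12.80 to 13.38) and 13.03 in CR HS (12.34 to 13.34). For the interaction of breed and temperature 3 of these 5 genes had an unadjusted p under 0.05, against 4.22% of all probes, and 0 were called. For temperature over the breeds, 2 of 5 leukocyte genes (median -0.13, 3 below 0) had an unadjusted p under 0.05, against 13.5% of all probes. At that level were also 1 of 2 red blood cell genes (median -0.35) and 1 of 6 zona fasciculata genes (median -0.037). All 4 Schwann cell genes were below 0 (median -0.11), with 0 at that level, as in the endothelium, pericyte and adipocyte lists. The part of these markers in the CACNA1D differences was not tested.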

How the data were processed

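RNA of adrenal tissue from 36 pigs was hybridised with Cy3 to a 1-colour porcine Agilent array, 1 array per pig. The paper sampled whole glands, cut the tissue and extracted RNA from a weighed amount of it. The authors extracted the intensity of each spot with Agilent Feature Extraction 10.10.1.1, per the labels' processing notes, which also name limma. The main values are the deposited log2 values of 45348 probes, which the authors made by quantile normalisation of the median pixel intensity, with 93 missing values over 87 probes. The table held 0 columns of other samples. The deposited scanner files, with the intensity of each spot before normalisation, gave the background flags, the probe sequences and the alternatives. The number of arrays limits the precision.

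Probes were named by the array's gene name, RefSeq accession, NCBI gene number (LOC name) or older symbol, which named 22676 of the 45348 probes. AGTR1 probes 2 and 3 were named by their LOC name alone. Groups came from the labels. limma 3.58.1 in R 4.3.3 was fitted to all 45348 probes with breed and temperature (32 residual degrees of freedom) or with 6 group means (30), with Benjamini-Hochberg adjustment and a threshold of 0.05. Permutations (100000, within groups, two-sided) were made in Python 3.11.15 with scipy 1.17.1. Separate pigs were the replicates. The study's random effects (pen, slaughter day, father and mother) are not in the labels and were not used.

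The brightest tested probe stood for a gene. Text names all member probes, called genes of the pathway lists, the 2 with the smallest p where a list had none, and the 3 genes most like each member. Members and lists were chosen with earlier results of these data known. In a test on simulated data of 45261 probes, the temperature comparison recovered 50% of changes of 0.25 and 94% of 0.5 on the log2 scale, with 8 false calls, and the comparison within F1 16% and 64%, with 5. The simulated errors were independent between arrays and between probes, without slides or littermates. Recovery and false calls on the real arrays can therefore differ. Alternatives were other normalisations and background corrections, other filters, slide as a block, array weights, each slide or pig left out, and the mean of a gene's probes. The KCNJ5 relation within slides and groups, the relations of the other probes and the slide values with breed in the fit, the share of variance by slide and the correlations with slide in the fit were added after seeing the data. The sequences of ACE probes 2 to 4 are not reported here.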

Additional observations from a re-analysis of the deposited data

Results flagged for a closer look

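For 10 member probes in 6 groups, a pig far from the other 5 was looked for 60 times. It was found 3 times, and chance gives about 3, since about 1 in 20 groups is expected to show one. AGTR1 probe 1 had a highest F1 TN pig of 13.37, where the other 5 lay between 12.95 and 13.02. KCNJ5 had a lowest CR TN pig of 6.94, where the other 5 lay between 7.59 and 7.82. CACNA1D probe 1 had a lowest LW TN pig of 11.43, where the other 5 lay between 11.70 and 11.80.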

How the results depend on the processing

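No paired analysis was possible because the labels give no replicate numbers and the numbers used follow the order of deposit. The HS minus TN difference of CACNA1D stayed between 0.19 and 0.30 (probe 1, adjusted p 0.0593 to 0.376, 16 other settings) and between 0.18 and 0.31 (probe 2, 0.079 to 0.438, 15 other settings). The main counts of calls moved as follows. For the F test over breeds, 1 member probe became 0 with no filter and without slide 1, 2, 3 or 5, and 2 with the slide block, array weights or without slide 4 (0 to 2 without single pigs). For F1 against its parents, 0 became 1 with array weights and 2 without slide 4 (0 to 2), and for temperature within F1, 0 became 1 without slide 5 (0 to 1). For the pathway genes, temperature gave 1 with the slide block and with array weights (CALM3), and 0 to 1 without single pigs. LW against CR gave 5 without slide 1 and 4 without slide 3 (6 to 10 without single pigs), and F1 against its parents 0 with the 75th percentile, median centring, no filter or without slide 1, 2, 4 or 5 and 2 with the slide block, array weights or the mean of probes (0 to 2). Over all probes, the calls ran from 34 to 899 for temperature (413 in the main setting), from 2569 to 6316 for LW against CR (5207), from 14 to 316 for F1 against its parents (188), from 2025 to 6160 for the F test (4821), and from 0 to 6, 0 to 7 and 0 to 238 within CR (0), LW (5) and F1 (0). The cause was not tested.

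Signs were followed for probe 1 of each tested member, for CACNA1D probe 2 and for the called pathway genes. They were not followed for the other AGTR1 and ACE probes. Among the values followed, sign changes were met only in small differences that were called under no setting. AGTR1 probe 1 gave 0.0349 for HS minus TN without slide 4, -0.0871 and -0.0621 in CR without slides 1 and 3, and -0.0544 and -0.00735 in F1 with median centring and the slide block. ACE probe 1 gave -0.0233, -0.0477, -0.000604, -0.00261 and -0.0385 for HS minus TN with the 75th percentile, with median centring, without slides 4 and 5 and with the mean of probes, and 0.0117 for F1 against its parents with the mean of probes. In CR it gave -0.0254, -0.0179, -0.0601, -0.00091 and -0.0518 with median centring, array weights, without slides 2 and 5 and with the mean of probes, and it gave -0.0314 in LW and 0.0186 in F1 with the slide block. KCNJ5 gave -0.00806 for LW minus CR with the slide block, 0.0117 in CR without slide 3 and 0.0228 in F1 without slide 4. CACNA1D probe 1 gave -0.0172, -0.00184, -0.0382 and -0.0231 for LW minus CR with array weights, without slides 1 and 4 and with the mean of probes. Without single pigs, AGTR1 in CR ran from -0.0871 to 0.11, ACE from -0.0112 to 0.028 for HS minus TN and from -0.060 to 0.0653 in CR, KCNJ5 from -0.0101 to 0.0929 for LW minus CR and from -0.0206 to 0.0605 for F1 against its parents, and CACNA1D probe 1 from -0.0118 to 0.062 for LW minus CR. Single genes and probes gave 2499 values in all: 2322 kept direction and side of the threshold, 112 lost the threshold, 12 gained it and 53 changed sign.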

Other observations

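Of 3 further probes that the array's descriptions assign to pig ACE by text alone, 2 were in the table of log2 values. The first shared a run of 20 bases with the identical ACE probes 2 and 3, averaged 6.01 and differed by -0.11 between HS and TN (limma adjusted p = 0.783). Its deviations from the group means correlated with ACE probe 1 (r = 0.73 over 36 pigs) and ACE probes 2 to 4 (r between 0.54 and 0.66). The slide was not in this fit, and it took 85.6% of the variance of ACE probe 1 within groups. The second shared no run over 5 bases, had a like mean and correlated with ACE probe 1 at 0.16 and with ACE probe 2 at -0.20. These probes are not counted among those of ACE.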
